A study of Rattus norvegicus with 9 samples.

Results

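The mitochondrial carrier family, solute carrier family 25, was described in cultured rat cardiac fibroblasts of 3 ages. Members were all genes of the deposited count table whose symbol is Slc25a followed by a number, which gave 40 of the 17337 genes in the table. The cells were cardiac fibroblasts, the cells that make the heart's connective tissue. They came from Sprague Dawley rats, with no genetic change or drug treatment named. The fetal group was of embryonic day 18, the neonatal group of postnatal day 1 and the adult group of 7 weeks, with 3 libraries per age. All 9 cultures were at passage 0 and were grown to confluency in DMEM with serum, antibiotics and ascorbic acid, so every age had been in culture before lysis. The labels name no sorting step, do not say whether animals were pooled, and do not say that the 3 libraries of an age came from separate animals, so the p-values measure the spread between these libraries, which may be technical.

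Carriers of this family are small proteins of the mitochondrial inner membrane, each built of a repeated pair of membrane helices around a central substrate site. They move the nucleotides, phosphate, carboxylic acids, amino acids, coenzymes and metal ions that the respiratory chain, the citric acid cycle and biosynthesis need on either side of the membrane. In heart the family is best known for the ADP/ATP exchanger and the phosphate carrier, which supply the ATP synthase, and growing cells such as fibroblasts also rely on carriers that export citrate and exchange amino acids.

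Of the 40 members, 33 had enough counts for the test across all genes. In the adult cultures the largest differences from both younger ages were in the rare members. Slc25a45 was 16.1-fold higher in adult than in fetal cultures, and Slc25a23, an ATP-Mg/phosphate carrier, was 20.5-fold lower. Among the abundant members, the ADP/ATP exchanger Slc25a4 and the phosphate carrier Slc25a3 fell modestly from fetal to adult, while the citrate carrier Slc25a1 and the glutathione carrier Slc25a39 rose. The members next in level, Slc25a5, Slc25a11, Slc25a20 and Slc25a17, did not pass the test from fetal to adult. The iron carrier Slc25a28, of intermediate level, rose.

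The libraries held between 13392825 and 22850491 assigned counts, the adult ones 13392825 to 13810825. All 9 fibroblast markers, among them Col1a1, Pdgfra and Dcn, had counts in every library, but Col1a2 had only 1 to 21, where the other 8 had at least 130. Their summed level, in counts per 1000000 scaled counts (CPM), was 22500 to 49500 in fetal libraries, 66500 to 72700 in neonatal ones and 21900 to 28800 in adult ones. This sum is mostly Col1a1 and Col3a1, with at least 155371 and 106579 counts per library, where no other marker exceeded 8739. Taken singly, 6 of the 9 were higher in all neonatal than in all fetal libraries. Adult libraries exceeded all fetal ones for 4 and lay below them for 2. Against neonatal libraries these numbers were 3 and 4. Fetal replicate 3 stood apart from the other fetal libraries, with a chi-square per degree of freedom of 90 and 97.3 against them, where the other fetal pair gave 3.94. Its fibroblast markers summed to 22550 CPM, against 49550 and 46730 in fetal replicates 1 and 2. Adult replicate 1 differed from the other adult libraries by 25.8 and 43 on the same measure. Markers of other cell types moved with age. The 13 cardiomyocyte markers summed to 10300 to 14600 CPM in fetal libraries, 6540 to 7180 in neonatal ones and 307 to 321 in adult ones, all 13 were lower in adult than in either younger age, and Csrp3 had no count in adult cultures. The 12 macrophage markers summed to 15 to 70.8 CPM in fetal libraries, 166 to 183 in neonatal ones and 4180 to 5850 in adult ones, all 12 were highest in adult, and Cd163 had no count in fetal or neonatal cultures. The 8 endothelial markers summed to 17.2 to 20.7 CPM in fetal libraries, 23.6 to 28.9 in neonatal ones and 92.3 to 108 in adult ones, where 5 of the 8 exceeded every fetal library and 1 was below all of them, and 5 exceeded every neonatal library and 2 were below all of them. The 6 markers of smooth muscle or pericytes summed to 269 to 702 CPM in fetal libraries, 1180 to 1240 in neonatal ones and 189 to 350 in adult ones. For 5 of the 6, neonatal libraries exceeded all fetal ones, and for 5 adult libraries lay below all neonatal ones. Of 6 epicardial or mesothelial markers, the 4 in the table summed to 58.3 to 62 CPM in fetal libraries, 29.5 to 32 in neonatal ones and 14 to 33 in adult ones, and all 4 were lower in neonatal than in fetal libraries. Of 8 erythroid markers, the 7 in the table summed to between 1.12 and 2.28 CPM in all 9 libraries. Because each library holds the RNA of the whole flask, a change in the number of cells of a type and a change in RNA per cell cannot be told apart, and the part of these marker changes in the results below was not tested.

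For a view of the sequence at the start of these genes, RefSeq promoters of assembly GRCr8, 300 bases from 250 before to 50 after the annotated start, were matched by symbol to 34 members. The 5 below belong to the carriers on which the results turn. Slc25a4 and Slc25a5 are shown as the ADP/ATP exchangers with the higher and the lower count here, and Slc25a23, Slc25a45 and Slc25a28 as 3 members with large differences between ages. Each runs 5′ to 3′ on the gene's strand, and capitals mark matches, on either strand, to one of the 8 motifs searched.
Slc25a4, chr16:52805271-52805570, plus strand: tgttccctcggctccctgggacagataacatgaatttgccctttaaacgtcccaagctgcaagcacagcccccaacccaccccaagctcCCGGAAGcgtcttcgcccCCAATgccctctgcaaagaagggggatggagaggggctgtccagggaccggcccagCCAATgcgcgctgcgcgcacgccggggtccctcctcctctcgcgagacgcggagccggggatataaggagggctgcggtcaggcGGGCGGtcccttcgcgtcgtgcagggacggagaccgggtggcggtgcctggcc
Slc25a5, chrX:120897366-120897665, plus strand: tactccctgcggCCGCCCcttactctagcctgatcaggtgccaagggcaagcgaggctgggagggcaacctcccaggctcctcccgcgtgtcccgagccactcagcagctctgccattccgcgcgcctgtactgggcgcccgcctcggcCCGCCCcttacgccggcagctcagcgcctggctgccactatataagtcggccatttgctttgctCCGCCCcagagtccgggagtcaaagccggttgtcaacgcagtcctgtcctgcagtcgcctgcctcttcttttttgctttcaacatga
Slc25a23, chr9:1985316-1985615, minus strand: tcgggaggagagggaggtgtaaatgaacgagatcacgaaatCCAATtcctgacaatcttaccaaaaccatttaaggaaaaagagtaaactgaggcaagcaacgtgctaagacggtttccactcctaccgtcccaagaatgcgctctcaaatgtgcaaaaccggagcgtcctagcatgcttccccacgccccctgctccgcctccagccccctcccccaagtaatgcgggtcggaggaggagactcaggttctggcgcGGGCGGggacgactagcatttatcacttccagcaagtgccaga
Slc25a45, chr1:212596601-212596900, plus strand: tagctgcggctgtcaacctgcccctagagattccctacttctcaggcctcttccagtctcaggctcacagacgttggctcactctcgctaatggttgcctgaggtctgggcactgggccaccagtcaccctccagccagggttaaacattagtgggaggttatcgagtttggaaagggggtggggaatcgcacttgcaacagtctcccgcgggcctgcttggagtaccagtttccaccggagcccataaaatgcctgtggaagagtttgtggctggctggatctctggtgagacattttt
Slc25a28, chr1:252491293-252491592, minus strand: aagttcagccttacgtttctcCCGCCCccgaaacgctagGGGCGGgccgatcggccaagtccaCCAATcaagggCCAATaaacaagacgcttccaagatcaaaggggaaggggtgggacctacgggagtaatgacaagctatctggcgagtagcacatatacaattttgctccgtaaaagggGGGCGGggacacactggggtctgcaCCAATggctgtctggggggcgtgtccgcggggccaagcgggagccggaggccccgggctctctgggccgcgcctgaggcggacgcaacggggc

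Slc25a4 held 1 ETS core (CCGGAAG), 2 CCAAT boxes (CCAAT) and 1 GC box (GGGCGG), while Slc25a5 held 3 GC boxes and none of the other motifs. Slc25a28 held 3 CCAAT boxes and 3 GC boxes, Slc25a23 held 1 of each, and the Slc25a45 window held none of the 8 motifs. Of the 33 tested members, 27 had a promoter in the table. The promoters they are set against were not limited to genes tested here, so the 2 sets also differ in expression. The GC box was in 22 of the 27 (81.5%), against 34.9% of all 27457 promoters of the same length, and the CCAAT box in 17 (63%), against 37.7%. The ETS core was in 6 (22.2%), against 9.22% of all promoters. Median GC content was 60.7% for these 27 and 52.3% for all promoters. The remaining motifs were rarer: the NRF1 palindrome was in none of the 27 (0.932% of all), the TATA element (TATAAA) in 1 (14.3%), the ERR motif (AAGGTCA) in 1 (4.37%), the YY1 motif (AAGATGG) in 1 (7.3%) and the E-box (CACGTG) in 2 (6.65%). These motifs do not contain one another, and a match describes letters in this window only. Of the 6 with an ETS core, Slc25a4 and Slc25a3 fell from fetal to adult, Slc25a38 rose, and Slc25a14, Slc25a17 and Slc25a20 did not pass that test.

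The family as a whole took a small portion of the counts. It held 0.246% ± 0.012 (SD, n = 3) of them in fetal libraries, 0.211% ± 0.003 in neonatal ones and 0.22% ± 0.004 in adult ones. Between genes, levels were compared per kilobase of exon (CPM per kb). Averaged over the 9 libraries, Slc25a4 stood at 565 CPM per kb and Slc25a3 at 414, followed by Slc25a39 at 76.3, Slc25a1 at 71.7, Slc25a5 at 65 and the oxoglutarate/malate carrier Slc25a11 at 57.9. The lowest tested member was Slc25a27 at 0.966. The leading pair, Slc25a4 and Slc25a3, made up 63.5% ± 0.15 of all member counts in fetal libraries, 60.9% ± 0.5 in neonatal ones and 53.6% ± 0.65 in adult ones. No library of one age overlapped another in this share.

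**Figure D1:**
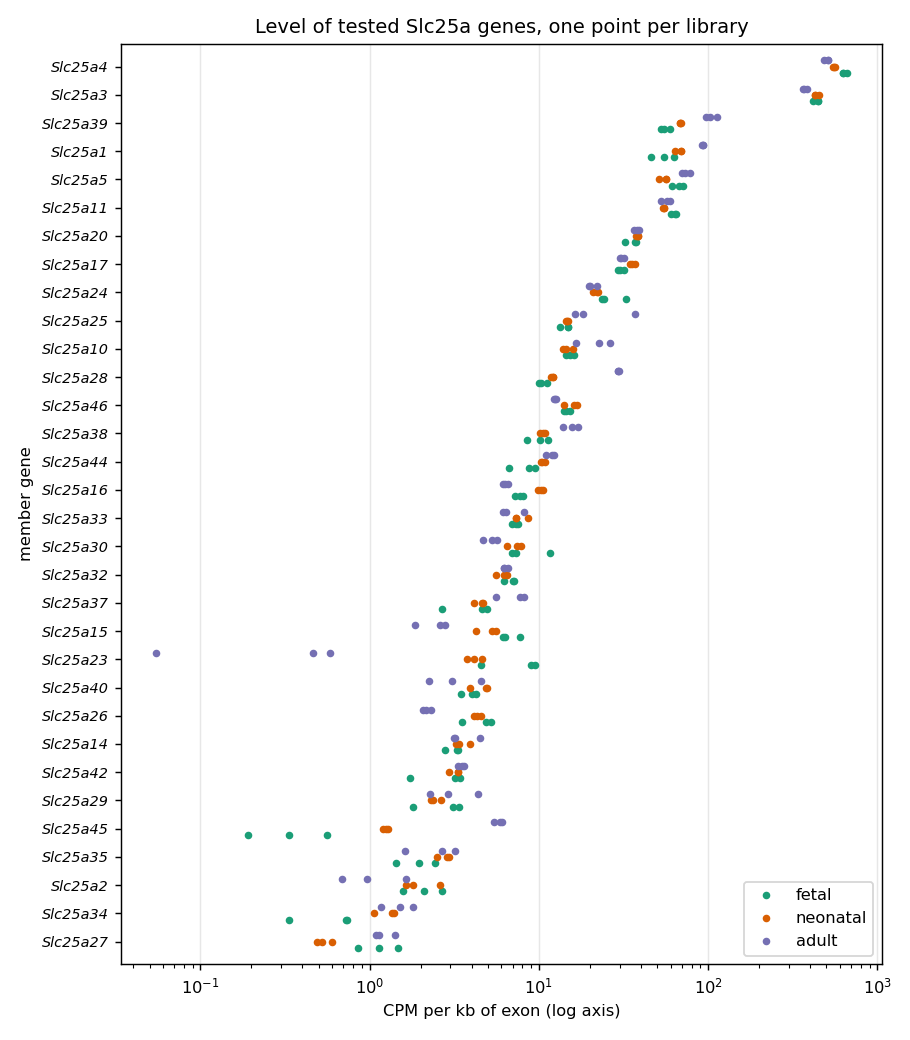
Level of tested members in CPM per kb of exon on a log axis, one point per library, coloured by age and ordered by mean level. Slc25a4 and Slc25a3 lie well above the others, and the adult points of Slc25a23 and Slc25a45 lie far from those of the other ages.

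Differences between ages were tested with edgeR over all 11337 tested genes, and a gene was called at an adjusted p under 0.05. From fetal to neonatal cultures 7 members rose, 4 fell and 22 passed no test, so 33.3% were called, where 36.3% of all tested genes were, 18.3% higher and 18% lower. From fetal to adult cultures 10 rose, 10 fell and 13 did not pass (60.6%), where 70.5% of all tested genes were called, 34.9% higher and 35.5% lower. From neonatal to adult cultures 11 rose, 7 fell and 15 did not pass (54.5%), where 63.5% of all tested genes were called, 31.6% higher and 31.8% lower. In each comparison the share of members called was somewhat below the share of all genes, a gap that rests on 33 members and was not tested. For 16, 21 and 23 of the 33 members, in the same order, every library of one age was above every library of the other, as was so for 57.4%, 71.8% and 76.1% of all tested genes. Each neonatal library mattered to the first comparison: without neonatal replicate 1, 2 or 3, 4 of its 11 calls remained in each case. The median log2 fold change of the members was 0.083, 0.078 and 0.048 in these 3 comparisons, with -0.0053, -0.013 and -0.0065 over all tested genes. The median size of the change, regardless of sign, was 0.21 for members and 0.29 for all genes in the first comparison, 0.35 and 0.63 in the second, and 0.46 and 0.52 in the third. By the test of any difference among the 3 ages, 24 members (72.7%) were called, against 77.6% of all tested genes. The 3 comparisons share libraries, so their counts are not independent.

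**Figure D2:**
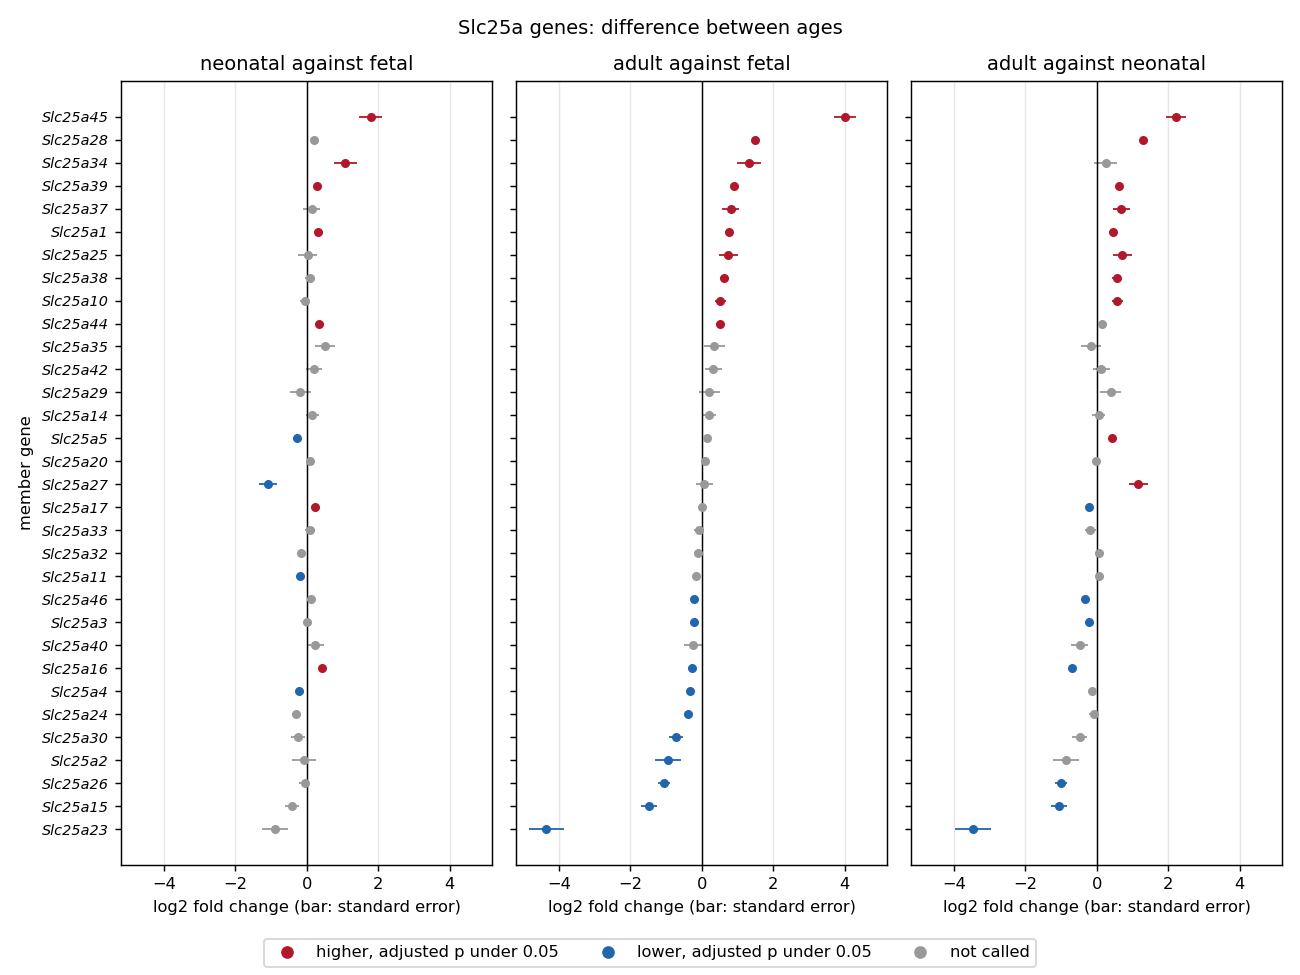
Log2 fold change of tested members in the 3 pairs of ages, with the standard error as a bar, red for higher and blue for lower at an adjusted p under 0.05, and grey otherwise. Most members lie within 1 of 0, and Slc25a45 and Slc25a23 mark the 2 ends in adult against fetal, at 4.01 and -4.36.

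Both ADP/ATP exchangers in the table fell from fetal to neonatal cultures, and Slc25a5 rose from neonatal to adult cultures. Slc25a4 (ANT1, rn6 chr16:49266903-49270698), the form that predominates in heart and muscle, stood at 854, 807 and 808 CPM in fetal replicates 1 to 3. It measured 722, 702 and 717 CPM in the neonatal libraries and 660, 625 and 659 CPM in the adult ones. The 3 ages did not overlap, with every fetal library highest and every adult library lowest. Its log2 fold change was -0.21 ± 0.06 (SE) in neonatal against fetal (adjusted p = 0.0311) and -0.35 ± 0.06 in adult against fetal (adjusted p = 0.000847). Adult against neonatal missed the threshold, at -0.14 ± 0.06 (adjusted p = 0.079), and passed it with DESeq2 (adjusted p = 0.0187), with only these 2 ages fitted (adjusted p = 0.0191) and without fetal replicate 3 (adjusted p = 0.0148).

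Slc25a5 (ANT2, rn6 chrX:123404570-123407637), the form associated with growing cells, measured 85.7, 80.6 and 73.5 CPM in fetal, 67.9, 67.7 and 61.5 CPM in neonatal and 93.7, 87.5 and 83.8 CPM in adult libraries. Neonatal libraries were the lowest, apart from both other ages, while fetal and adult libraries overlapped. It fell by 0.28 ± 0.08 on the log2 scale from fetal to neonatal (adjusted p = 0.0216), and adult was higher than neonatal by 0.43 ± 0.08 (adjusted p = 0.00115). Per kilobase, Slc25a4 made up 90.6% ± 0.46 of the summed level of the pair in fetal libraries, 91% ± 0.53 in neonatal ones and 87.2% ± 0.67 in adult ones, and the adult shares lay below all others. RefSeq names 9 pseudogenes of Slc25a5 and 1 of Slc25a4, and reads mapping to several places were left out of the counts, so the level of Slc25a5 is uncertain. Both calls from fetal to neonatal were lost when any neonatal library, or fetal replicate 1 or 2, was left out. Over all alternatives the adjusted p ran from 0.000107 to 0.125 for Slc25a4 and from 0.00133 to 0.0976 for Slc25a5.

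The phosphate carrier was lower in adult cultures than in either younger age. Slc25a3 (rn6 chr7:31816601-31824064), which brings phosphate and copper into the matrix, measured 660, 654 and 612 CPM in fetal and 630, 632 and 663 CPM in neonatal libraries. Adult libraries held 533, 542 and 564 CPM, below all 6 younger ones, which overlapped with each other. The log2 fold change was -0.23 ± 0.06 against fetal (adjusted p = 0.00966) and the same against neonatal (adjusted p = 0.0111). With library size alone as the scaling, the adult difference from neonatal was -0.17, with an adjusted p of 0.0539.

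The calcium-regulated ATP-Mg/phosphate carriers, which adjust the adenine nucleotide pool of the matrix, did not move together. Slc25a23 (rn6 chr9:9988057-10001962) measured 12.6, 13.4 and 6.38 CPM in fetal and 5.28, 6.46 and 5.83 CPM in neonatal libraries, but 0.0765, 0.65 and 0.824 CPM in adult ones. The adult values rest on 1, 9 and 11 counts, all far below the lowest younger library, at 5.28 CPM. The log2 fold change was -4.36 ± 0.49 in adult against fetal (adjusted p = 3.84e-05) and -3.48 ± 0.5 in adult against neonatal (adjusted p = 0.000255). Fetal replicate 3 overlapped the neonatal libraries, and neonatal against fetal did not pass (-0.88 ± 0.37, adjusted p = 0.0885). It did pass without fetal replicate 3 (-1.15, adjusted p = 0.00238), without adult replicate 1 (adjusted p = 0.0345), with DESeq2 (adjusted p = 0.0471) and with library size alone (adjusted p = 0.0424). Without fetal replicate 3 the adult difference from fetal was -4.63. The summed cardiomyocyte markers were also lower in adult libraries, as given above, and their part in this difference was not tested.

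Slc25a24, the member of that subfamily with the highest level, measured 80.6, 83.2 and 113 CPM in fetal, 72.1, 77 and 75.9 CPM in neonatal and 68.1, 75.6 and 68.5 CPM in adult libraries. Fetal replicate 3 was the highest of the 9, and neonatal and adult libraries overlapped. Slc25a24 fell by 0.38 ± 0.12 on the log2 scale from fetal to adult (adjusted p = 0.0186), by 0.21 without fetal replicate 3, and lost the call without adult replicate 1 (adjusted p = 0.0556) or adult replicate 3 (adjusted p = 0.0577). Neonatal against fetal was -0.3 ± 0.12 (adjusted p = 0.0824), and passed with library size alone (-0.48, adjusted p = 0.0371) and without fetal replicate 1 (adjusted p = 0.0398).

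Its relative Slc25a25 ran from 41.8 to 46.6 CPM in the 6 younger libraries and measured 116, 51.6 and 57.4 CPM in the adult ones. Adult replicate 1 alone stood far above the rest, although the other 2 adult libraries also exceeded every younger one. The log2 fold change was 0.74 ± 0.27 in adult against fetal (adjusted p = 0.0331) and 0.71 ± 0.27 in adult against neonatal (adjusted p = 0.0431). Without adult replicate 1 these values were 0.28 (adjusted p = 0.0143) and 0.25 (adjusted p = 0.0283). Without any one fetal library the adult difference from fetal lost its call at about the same size (0.68 to 0.76, adjusted p up to 0.134), and without any one fetal or neonatal library so did that from neonatal (0.69 to 0.7, adjusted p up to 0.103). The 4th gene of the group, Slc25a41, which lies next to Slc25a23 on rn6 chromosome 9, had no count in any library.

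The citrate carrier Slc25a1 and the dicarboxylate carrier Slc25a10 rose in adult cultures, and the oxoglutarate/malate carrier Slc25a11 passed neither test there. Slc25a1, which exports citrate for fatty acid and sterol synthesis (rn6 chr11:87204248-87207265), measured 103, 89.9 and 75.5 CPM in fetal, 114, 114 and 105 CPM in neonatal and 152, 153 and 154 CPM in adult libraries. The 3 ages were in order without overlap. It rose at each step, by 0.31 ± 0.1 on the log2 scale from fetal to neonatal (adjusted p = 0.0384), by 0.46 ± 0.1 from neonatal to adult (adjusted p = 0.00308) and by 0.77 ± 0.1 from fetal to adult (adjusted p = 0.000101). The first of these was lost with library size alone (0.15, adjusted p = 0.159) and without fetal replicate 2, adult replicate 2 or 3, or any one neonatal library, and was 0.2 without fetal replicate 3.

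Slc25a10, which exchanges malate and succinate for phosphate, measured 29.3, 27.7 and 30.9 CPM in fetal, 26.5, 27.7 and 30.6 CPM in neonatal and 31.9, 43.7 and 50.2 CPM in adult libraries. Adult replicate 1 lay just above the younger libraries and the other adult ones well above. The adult difference was 0.52 ± 0.15 on the log2 scale from fetal (adjusted p = 0.0106, and 0.0522 with library size alone) and 0.57 ± 0.15 from neonatal (adjusted p = 0.00774). Slc25a11, the oxoglutarate/malate carrier of the malate-aspartate shuttle, held 60, 56.8 and 61 CPM in fetal, 51.6, 51.3 and 52 CPM in neonatal and 54.3, 49.6 and 56.1 CPM in adult libraries. Fetal libraries were the highest, and neonatal and adult libraries overlapped. It fell by 0.2 ± 0.07 from fetal to neonatal (adjusted p = 0.0417), a call lost without any one neonatal library and without fetal replicate 1 or 3 (adjusted p up to 0.13 over all alternatives). Adult against fetal was -0.15 ± 0.07 (adjusted p = 0.0652), and passed with library size alone (-0.27, adjusted p = 0.0217) and without adult replicate 3 (adjusted p = 0.0439).

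The glutamate carriers gave almost no reads. Slc25a18 had 3 counts in all and Slc25a22 none. In the rn6 annotation of the count table Slc25a22 stands as 2 copies of 9 exons each on chromosome 1, at 213973482 to 213981330 and at 214410388 to 214418236, with the same exon lengths at an offset of 436906 bases. Reads that map to several places were not counted, so its value of 0 cannot be read as absence. Slc25a21, the oxodicarboxylate carrier, had 29 counts in all and overlaps exons of Pax9.

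Among carriers of carnitine and amino acids, 7 were tested. From fetal to adult 3 rose (Slc25a38, Slc25a44 and Slc25a45), 2 fell (Slc25a2 and Slc25a15) and 2 did not pass (Slc25a20 and Slc25a29), so 71.4% were called, near the 70.5% of all tested genes. Slc25a45 (rn6 chr1:221237629-221244564), a less studied carrier linked to the import of methylated amino acids, measured 0.54, 0.309 and 0.903 CPM in fetal, 1.93, 2 and 2.07 CPM in neonatal and 9.49, 9.82 and 8.76 CPM in adult libraries. These are 7 to 17 counts per fetal library, 32 to 43 per neonatal and 117 to 136 per adult one, and the ages did not overlap. It rose by 1.79 ± 0.32 on the log2 scale from fetal to neonatal (adjusted p = 0.00291), by 2.22 ± 0.27 from neonatal to adult (adjusted p = 8.6e-05) and by 4.01 ± 0.31 from fetal to adult (adjusted p = 3e-06). All 3 calls held in every alternative tried. The summed macrophage and endothelial markers were also higher in adult libraries, as given above, and their part in this difference was not tested.

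Slc25a15, the ornithine carrier of the urea cycle and of polyamine and proline metabolism, went the other way. It measured 6.7, 6.48 and 8.24 CPM in fetal, 5.89, 5.58 and 4.47 CPM in neonatal and 2.76, 2.96 and 1.95 CPM in adult libraries, with no overlap between ages. It fell by 1.48 ± 0.21 on the log2 scale from fetal to adult (adjusted p = 0.00019) and by 1.06 ± 0.22 from neonatal to adult (adjusted p = 0.00202), while neonatal against fetal did not pass (-0.42 ± 0.2, adjusted p = 0.123). Slc25a2, a second ornithine carrier encoded by a single exon, was rarer, at 1.89, 2.51 and 3.19 CPM in fetal, 2.15, 1.95 and 3.11 CPM in neonatal and 1.15, 1.95 and 0.824 CPM in adult libraries. Its libraries overlapped between fetal and adult. The log2 fold change from fetal to adult was -0.95 ± 0.37 (adjusted p = 0.0423), and the call was lost when any library except fetal replicate 1 and adult replicate 2 was left out (adjusted p up to 0.132). Adult against neonatal was -0.86 ± 0.37 (adjusted p = 0.0668), and passed without fetal replicate 3 (adjusted p = 0.0387) or adult replicate 2 (-1.27, adjusted p = 0.021).

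The glycine carrier Slc25a38, which supplies the first step of heme synthesis, measured 17, 18.9 and 14.1 CPM in fetal, 17.7, 18.2 and 17 CPM in neonatal and 23.1, 26.2 and 28.2 CPM in adult libraries. Every adult library exceeded every younger one. It rose by 0.63 ± 0.12 from fetal to adult (adjusted p = 0.00121) and by 0.55 ± 0.12 from neonatal to adult (adjusted p = 0.00337). Slc25a44, a carrier of branched-chain amino acids, measured 32, 34.8 and 24.4 CPM in fetal, 40.2, 38.5 and 37.8 CPM in neonatal and 43.9, 40.6 and 45.2 CPM in adult libraries. Fetal libraries were the lowest. Slc25a44 rose from fetal to adult by 0.51 ± 0.12 (adjusted p = 0.00431). Its neonatal difference from fetal was 0.35 ± 0.12 (adjusted p = 0.0469), which was 0.22 without fetal replicate 3. In 12 of 15 alternatives that call was lost, among them those without fetal replicate 1 or any one neonatal or adult library (adjusted p up to 0.135). The carnitine/acylcarnitine carrier Slc25a20, the highest of the group per kilobase at 37.2 CPM per kb, measured 65.2, 65.8 and 56.8 CPM in fetal, 67.2, 65.6 and 67.6 CPM in neonatal and 66.6, 63.6 and 68.1 CPM in adult libraries. All ages overlapped. It was called in no comparison, with adult against fetal at 0.078 ± 0.071 (adjusted p = 0.347). Slc25a29, a carrier of basic amino acids, ranged from 3.35 to 8.11 CPM and was not called either. Slc25a47, with 17 counts in all, was not tested.

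Carriers of coenzymes and vitamins split. Slc25a16, which is needed for coenzyme A in the matrix, measured 24.6, 25.7 and 22.9 CPM in fetal, 33.4, 32.7 and 31.5 CPM in neonatal and 20.1, 19.4 and 20.8 CPM in adult libraries. Neonatal libraries were the highest and adult ones the lowest, with no overlap. It rose by 0.41 ± 0.08 on the log2 scale from fetal to neonatal (adjusted p = 0.00337) and fell by 0.7 ± 0.08 from neonatal to adult (adjusted p = 5.32e-05). Adult was also below fetal, at -0.28 ± 0.08 (adjusted p = 0.00985). With library size alone the first of these values was 0.25. Slc25a42, the other coenzyme A carrier, ran from 4.83 to 10.1 CPM and passed no test. As a share of the pair per kilobase, Slc25a16 made up 73.9% ± 6 in fetal libraries, 76.3% ± 0.81 in neonatal ones and 64.5% ± 0.17 in adult ones, the adult shares below all others.

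Slc25a26, which imports S-adenosylmethionine, the methyl donor of mitochondrial RNA and protein methylation, measured 10.8, 11.6 and 7.81 CPM in fetal, 9.25, 9.57 and 10.2 CPM in neonatal and 4.59, 4.77 and 5.17 CPM in adult libraries. The younger ages overlapped and all adult libraries were lower. It fell by 1.06 ± 0.17 from fetal to adult (adjusted p = 0.000388) and by 1 ± 0.17 from neonatal to adult (adjusted p = 0.00075).

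Slc25a17, the peroxisomal carrier of coenzyme A and related cofactors, had the highest level of this group, at 55.9, 52.6 and 51.7 CPM in fetal, 65.1, 60.6 and 62.1 CPM in neonatal and 55.4, 52.9 and 53.4 CPM in adult libraries. Neonatal libraries were above both other ages, which overlapped. It rose by 0.23 ± 0.06 from fetal to neonatal (adjusted p = 0.0187) and fell by 0.22 ± 0.06 from neonatal to adult (adjusted p = 0.013). With library size alone these values were 0.06 (adjusted p = 0.504) and -0.16 (adjusted p = 0.0796). The first call was also lost without fetal replicate 2 or neonatal replicate 1. Slc25a32, linked to folate and FAD transport, ran from 12.9 to 16.5 CPM with no call, as did the pyrimidine nucleotide carrier Slc25a33, from 8.49 to 11.9 CPM.

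The iron carriers, called mitoferrins, rose in adult cultures. Slc25a28 (mitoferrin 2, rn6 chr1:263420041-263431290), the form of non-erythroid cells, measured 15.4, 17 and 15.8 CPM in fetal, 18.6, 18.6 and 18 CPM in neonatal and 45.3, 44.6 and 44.9 CPM in adult libraries. The adult libraries lay within 1 CPM of each other and far above all younger ones. The log2 fold change was 1.48 ± 0.07 in adult against fetal (adjusted p = 1.86e-07) and 1.29 ± 0.07 in adult against neonatal (adjusted p = 8.21e-07), and neonatal against fetal missed the threshold (0.2 ± 0.07, adjusted p = 0.0644). Slc25a37 (mitoferrin 1), the form best known from erythroid cells, measured 4.21, 7.28 and 7.76 CPM in fetal, 6.55, 7.39 and 7.25 CPM in neonatal and 12.9, 12.2 and 8.76 CPM in adult libraries. All adult libraries exceeded the younger ones, adult replicate 3 only slightly. Slc25a37 rose by 0.81 ± 0.24 from fetal to adult (adjusted p = 0.0122) and by 0.68 ± 0.24 from neonatal to adult (adjusted p = 0.0314), the second lost without adult replicate 1 or 2 or any one neonatal library (adjusted p up to 0.101). Slc25a28 made up 72.5% ± 5.9 of the pair per kilobase in fetal libraries, 72.9% ± 1.4 in neonatal ones and 80.5% ± 3.2 in adult ones, with fetal and adult shares overlapping. Of the 7 erythroid markers in the table, Hba1, Hbb and Alas2 had at most 3 counts in any library. Hba2 had no count in fetal or neonatal libraries but passed 3 counts in an adult one. Adult libraries exceeded all fetal ones for 1 of the 7 and lay below them for 1. The part of these markers, and of the macrophage markers, whose sum was higher in adult libraries, was not tested.

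Of the 2 glutathione carriers, the abundant one rose at each step and the other passed no test. Slc25a39 (rn6 chr10:90351899-90356242), needed for glutathione import into the matrix, measured 86.2, 79.5 and 76 CPM in fetal, 99.4, 98.1 and 99.3 CPM in neonatal and 141, 149 and 164 CPM in adult libraries. The 3 ages rose in order without overlap. Its log2 fold change was 0.3 ± 0.07 in neonatal against fetal (adjusted p = 0.0133), 0.61 ± 0.07 in adult against neonatal (adjusted p = 7.75e-05) and 0.91 ± 0.07 in adult against fetal (adjusted p = 4.21e-06). With library size alone the first was 0.13 (adjusted p = 0.208). Its paralog Slc25a40 ran from 3 to 6.65 CPM with no call, and adult against fetal was -0.25 ± 0.25 (adjusted p = 0.387). That the 2 genes differ in their change was not tested. RefSeq names 8 pseudogenes of Slc25a39, so its level, like that of Slc25a5, is uncertain.

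Relatives of the uncoupling proteins were at low levels. Slc25a27 (UCP4), best known from brain, measured 2.27, 3 and 3.88 CPM in fetal, 1.6, 1.39 and 1.29 CPM in neonatal and 3.75, 2.89 and 3 CPM in adult libraries. Neonatal libraries were the lowest and the other ages overlapped. It fell by 1.09 ± 0.26 from fetal to neonatal (adjusted p = 0.0115), a call lost without neonatal replicate 2 or 3 (adjusted p up to 0.0514), and rose by 1.16 ± 0.27 from neonatal to adult (adjusted p = 0.00383). Slc25a30, which had the highest level of this group, measured 12.5, 13.2 and 21.1 CPM in fetal, 14.3, 13.4 and 11.8 CPM in neonatal and 8.42, 10.3 and 9.59 CPM in adult libraries. Fetal replicate 3 was the highest of all 9 and adult libraries the lowest. Slc25a30 fell by 0.72 ± 0.21 from fetal to adult (adjusted p = 0.0107), and by 0.45 without fetal replicate 3 (adjusted p = 0.00853). Adult against neonatal, at -0.48 ± 0.21 (adjusted p = 0.0664), passed with only these 2 ages fitted (adjusted p = 0.00727) and without fetal replicate 1 (adjusted p = 0.0497) or 3 (adjusted p = 0.00304). Slc25a14 (UCP5) ran from 4.36 to 7.01 CPM and passed no test.

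Slc25a46 is a family member of the outer membrane that takes part in mitochondrial fusion and lipid exchange. It measured 42.2, 44.8 and 40.8 CPM in fetal, 41.2, 47.3 and 49.2 CPM in neonatal and 35.9, 36.3 and 36.9 CPM in adult libraries, where every adult library was below every younger one. It fell by 0.33 ± 0.08 from neonatal to adult (adjusted p = 0.00561) and by 0.23 ± 0.08 from fetal to adult (adjusted p = 0.0303), the latter lost without fetal replicate 2 or any one adult library (adjusted p up to 0.0939).

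The substrates of the last group are less settled. Slc25a34 measured 1.62, 1.63 and 0.744 CPM in fetal, 3.03, 2.37 and 3.11 CPM in neonatal and 2.6, 3.39 and 4.04 CPM in adult libraries. Fetal libraries were the lowest, and the other ages overlapped. It rose by 1.08 ± 0.33 from fetal to neonatal (adjusted p = 0.0296, lost without any one neonatal library) and by 1.32 ± 0.33 from fetal to adult (adjusted p = 0.00522). Slc25a35, whose exons overlap those of Rangrf, ran from 2.44 to 5.43 CPM with no call. Slc25a53, with 27 counts in all, was not tested, and Slc25a54, which was given no role here, had no count.

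**Figure D3:**
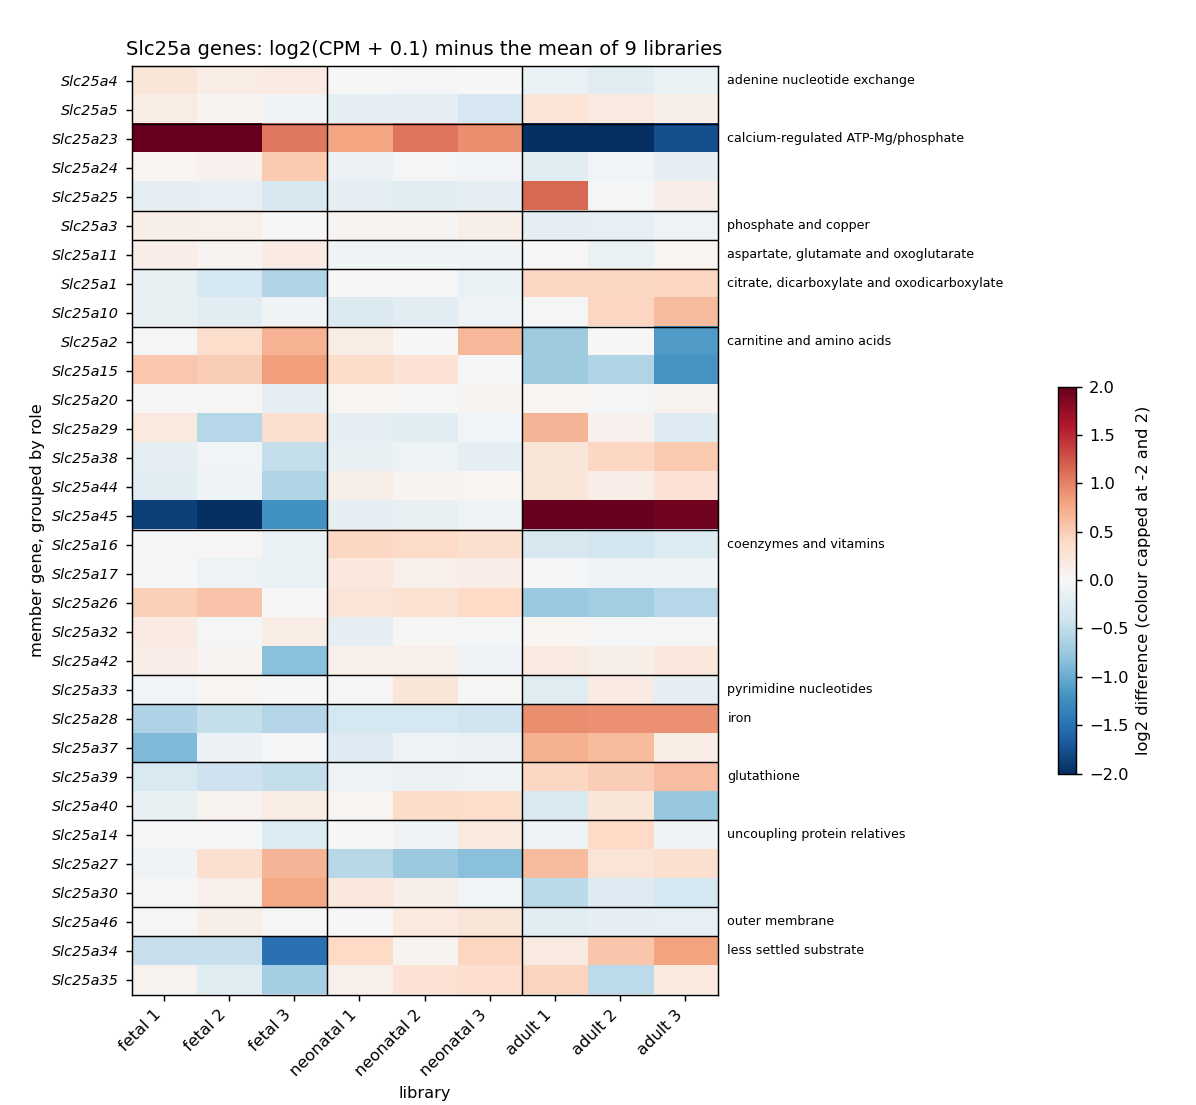
Tested members in each library as log2(CPM + 0.1) minus the member's mean over the 9 libraries, grouped by role, with red for higher and blue for lower and colours capped at -2 and 2. Adult columns are red for Slc25a45, Slc25a28, Slc25a37, Slc25a39 and Slc25a1 and blue for Slc25a23, Slc25a15 and Slc25a26.

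**Figure D4:**
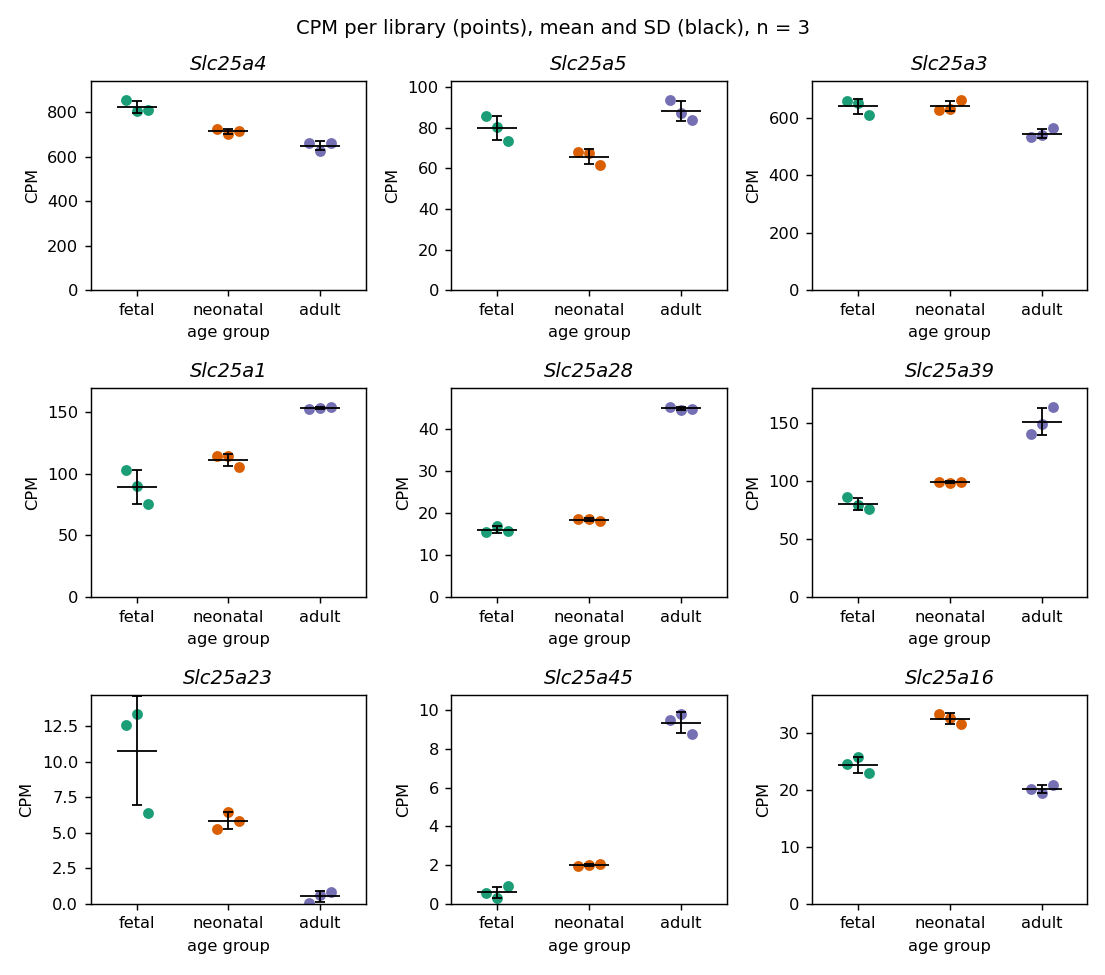
CPM of 9 members in each library as coloured points, with the mean as a black line and the SD as its bar (n = 3 per age) and every vertical axis starting at 0. Slc25a1 and Slc25a39 are in order of age, Slc25a16 is highest in neonatal libraries, and adult libraries hold 44.6 to 45.3 CPM of Slc25a28 against at most 18.6 in the others.

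Across roles, 8 members were higher in adult cultures than in both younger ages and 6 were lower than in both. The share of all tested genes that met such joint conditions was not worked out. These counts, and those that follow, therefore describe the members only. Slc25a1, Slc25a39 and Slc25a45 rose at every step from fetal through neonatal to adult. The 8 tested members called in no pair of ages were Slc25a14, Slc25a20, Slc25a29, Slc25a32, Slc25a33, Slc25a35, Slc25a40 and Slc25a42. Slc25a32 was called in 1 alternative, neonatal against fetal with library size alone (-0.33, adjusted p = 0.0482), and Slc25a40 in 1, adult against neonatal without adult replicate 2 (-0.79, adjusted p = 0.0161). In the fits reported, these 8 show no detected difference at this depth and with 3 libraries per age, which does not show that the levels were equal.

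Genes of the same fold that carry other symbols were read beside the members. Ucp2, an uncoupling protein linked to the export of C4 metabolites, measured 203 ± 12.6 CPM (SD, n = 3) in fetal cultures, 102 ± 3.73 in neonatal ones and 293 ± 26.1 in adult ones. It fell by 0.99 on the log2 scale from fetal to neonatal (adjusted p = 5.38e-05) and rose by 1.52 from neonatal to adult (adjusted p = 6.16e-07). Ucp1 and Ucp3 had no count, Mtch1 rose from fetal to adult by 0.22 (adjusted p = 0.0185), and Mtch2 measured 193, 189 and 193 CPM in the 3 ages and passed no test.

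Other transport systems of the inner membrane carry pyruvate, calcium, serine and iron-sulfur precursors. Of 16 tested, 4 rose and 8 fell from fetal to adult, with a median log2 fold change of -0.21, and 75% were called, where 70.5% of all tested genes were. Mcu, the pore of the calcium uniporter, stood at 66.6 ± 1.49 CPM in fetal cultures, at 28.8 ± 3.15 in neonatal ones and at 13.9 ± 0.63 in adult ones, with a log2 fold change of -2.25 ± 0.09 in adult against fetal (adjusted p = 7.15e-08). Slc8b1, the sodium/calcium exchanger that releases calcium from the matrix, rose from 10.8 ± 2.78 to 37.4 ± 2.19 and 110 ± 6.39 CPM, by 3.35 ± 0.17 from fetal to adult (adjusted p = 2.13e-07). The serine carrier Sfxn1 fell by 0.64 (adjusted p = 2.53e-05).

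Among enzymes that use the same metabolites as the carriers, 13 act on malate, aspartate, glutamate or citrate. Of these, 2 rose and 7 fell from fetal to adult, and the median log2 fold change was -0.4. The share called, 69.2%, was near the 70.5% of all tested genes, of which 35.5% were lower. Isocitrate dehydrogenase Idh2 fell by 1.31 (adjusted p = 4.47e-07) and citrate synthase Cs by 0.71 (adjusted p = 3.93e-06), while glutamate dehydrogenase Glud1 rose by 0.38 (adjusted p = 0.000219). Acly, which cleaves the citrate that Slc25a1 exports, passed no test (0.11, adjusted p = 0.148).

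Of 9 genes of mitochondrial one-carbon metabolism, 4 fell from fetal to adult and 5 did not pass, among the fallen Mthfd2 by 1.05 (adjusted p = 9.82e-05) and Mthfd1l by 1.35 (adjusted p = 0.000135). So 44.4% were called, all lower, where 70.5% of all tested genes were called, 34.9% higher and 35.5% lower. In the carnitine shuttle, beside Slc25a20, 1 of 6 rose (Crat, by 0.57, adjusted p = 0.00121), 1 fell (Cpt1b, the muscle form of carnitine palmitoyltransferase, by 1.08, adjusted p = 0.00177) and 4 did not pass. Of 8 genes of heme and iron-sulfur cluster synthesis and iron uptake, 3 rose and 2 fell from fetal to adult. The shares called were 33.3% for the carnitine shuttle and 62.5% for these 8 genes, against the same 70.5%. The transferrin receptor Tfrc fell by 1.8 ± 0.11 (adjusted p = 5.08e-07) from 202 ± 14.6 CPM in fetal to 58.3 ± 7.8 CPM in adult cultures, where both mitoferrins rose. The scaffold protein Iscu rose by 0.61 (adjusted p = 0.000277), Ppox by 0.54 (adjusted p = 0.000362) and Alas1, which uses the glycine brought in by Slc25a38, by 0.45 (adjusted p = 0.00183).

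Of 13 outer membrane porins and import proteins, 2 rose and 5 fell from fetal to adult, with a median of -0.15. The share called was 53.8%, where 70.5% of all tested genes were called. Of 74 respiratory chain and ATP synthase subunits of the nuclear genome, 2 rose and 34 fell from fetal to neonatal, 21 rose and 19 fell from fetal to adult, and 39 rose and 8 fell from neonatal to adult, with medians of -0.22, -0.0038 and 0.22. The shares called were 48.6%, 54.1% and 63.5%, where 36.3%, 70.5% and 63.5% of all tested genes were called. Of all tested genes, 18.3%, 34.9% and 31.6% were higher and 18%, 35.5% and 31.8% lower, in the same order.

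Of 13 regulators of mitochondrial mass, 1 rose and 7 fell from fetal to adult. The share called was 61.5%, where 70.5% of all tested genes were called, 34.9% higher and 35.5% lower. Ppargc1a, the coactivator of mitochondrial genes, had no count in any adult library, which against a floor of 3 counts per library was at least 25.2-fold lower than in fetal and at least 12.5-fold lower than in neonatal cultures. Its partner Esrrg had 1, 0 and 1 counts in adult libraries, at least 32.3-fold and 20.7-fold lower on the same floor. The 13 cardiomyocyte markers were lower in the same libraries, at 307 to 321 CPM in adult against 10300 to 14600 in fetal ones, and their part in these differences was not tested. Esrra rose by 0.41 from fetal to adult (adjusted p = 0.00126) and Gabpa, the ETS factor, fell by 0.75 (adjusted p = 0.000181). These floors take in counting error alone, since PCR copies of a molecule were not marked.

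**Figure D5:**
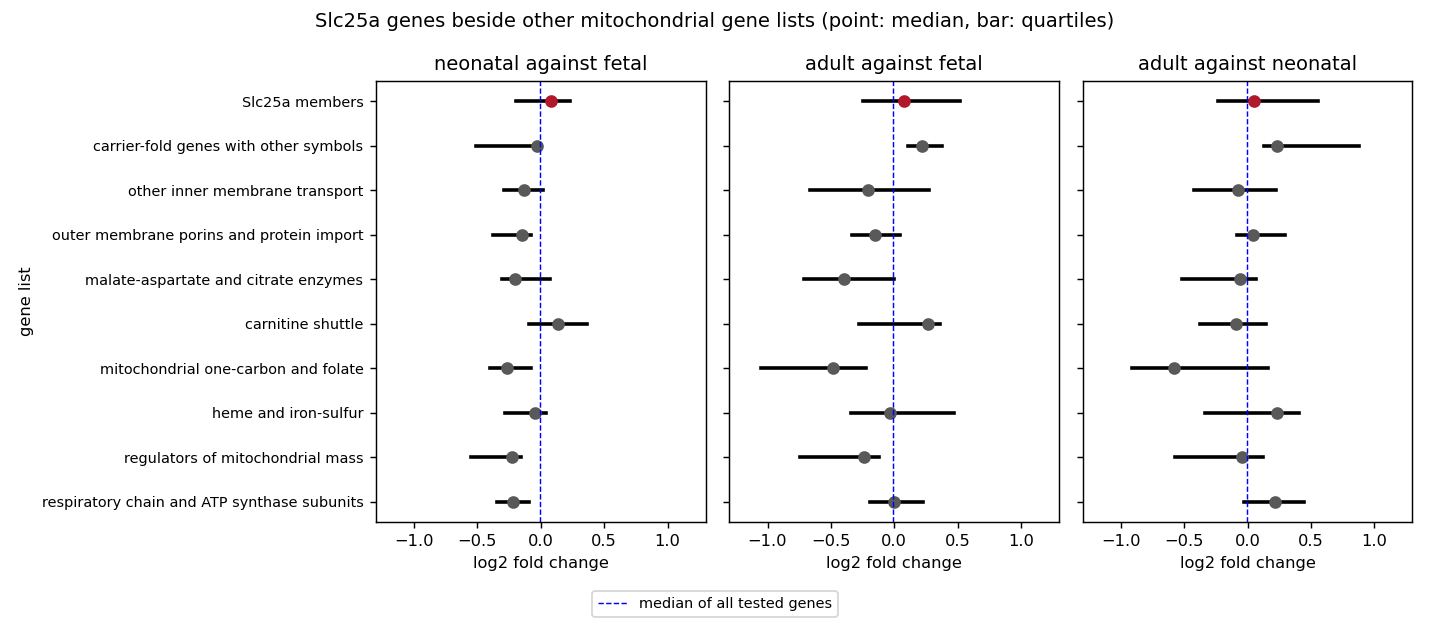
Median log2 fold change (point) and quartiles (bar) of the members, in red, and of 9 other mitochondrial gene lists in the 3 pairs of ages, with the median of all tested genes as a dashed line. The members sit near that line in each panel, while respiratory chain subunits lie at -0.22 in neonatal against fetal and at 0.22 in adult against neonatal.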

How the data were processed

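RNA of 9 cultures was measured as raw counts per gene. The authors made these deposited counts with featureCounts 1.6.3 and an rn6 annotation, per the file headers, and the submitters' processing notes also name Trimmomatic 0.39, STAR 2.5.2b, FastQC and DESeq2. Only annotation and output options were given, so counting was unstranded, in reads, and left out reads mapping to several places or to several genes. Exon length in bases came from the same deposited table. A second deposited table held the authors' normalized signal, the counts divided by 1 size factor per library, and was used only to compare size factors.

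Tests used edgeR 4.0.16 in R 4.3.3 (filterByExpr, TMM, robust quasi-likelihood, all 9 libraries, age as the only term), which kept 11337 genes. P-values were Benjamini-Hochberg adjusted over all of them, at a threshold of 0.05. CPM used TMM-scaled library sizes, and CPM per kb divided by exon length. Standard errors came from the F statistic. The fit was also run on simulated counts in which a small set of genes changed, in adult alone and equally up and down. That setting cannot show how the scaling behaves when many genes differ, as here. No 2 libraries of an age agreed within counting error. Alternatives were DESeq2 1.42.0, median-of-ratios or library-size scaling, no filter, only the 2 ages compared, a replicate block, each library left out, and a log2 fold change of at least 1.

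The members, role groups, other lists and markers were chosen with earlier results of these data known. Per-library values are given for up to 3 members per role with the largest change and for the one with the highest level, and also for Slc25a38 and Slc25a44, chosen after their values were seen. Other lists are given by counts, medians and up to 4 genes with the smallest adjusted p in adult against fetal. Esrra, also named, is not among the 4 smallest of its list, the regulators of mitochondrial mass. Acly, named beside the lists, was chosen after its value was seen, as were Mtch2, Ucp1 and Ucp3. RefSeq promoters were matched by symbol. Some genes included in the counts are not reported here by name, in text or figures. A further 9 RefSeq genes of the family are not in the table and were not analysed here.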

Additional observations from a re-analysis of the deposited data

How the results depend on the processing

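No called change of a member reversed its direction in any alternative run. Of the members called, 2 of 11 in neonatal against fetal (Slc25a16 and Slc25a45), 15 of 20 in adult against fetal and 14 of 18 in adult against neonatal kept their call in every alternative other than the size limit. With library size alone as the scaling, neonatal against fetal had 3 members higher and 8 lower in place of 7 and 4, the median of all genes moved from -0.0053 to -0.18, and the share of called genes that were higher moved from 50.4% to 29%. Without a filter on low counts 2 members were lower in that comparison, where 3909 of all genes were called in place of 4114.

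Numbers in the labels did not pair the libraries: correlations of same-numbered deviations ran from -0.065 to 0.052. With the replicate block, neonatal against fetal had 5 members higher and 2 lower, adult against fetal 10 and 9, and adult against neonatal 10 and 7. Of all genes, 3713, 7801 and 6985 were called with the block, in place of 4114, 7987 and 7197. Leaving out 1 library gave 3 to 7 members higher and 0 to 6 lower in neonatal against fetal. The edgeR fits without neonatal replicate 2 or 3 hold the lowest counts of members lower. At an unadjusted p under 0.05 these fits had 4 and 5 members lower, and DESeq2 was not run there. Without neonatal replicate 1, 2 or 3, 2607, 2476 or 2575 of all genes were called in that comparison, in place of 4114. Other comparisons moved by less than 1.5 times.

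A size limit of at least 1 on the log2 scale left 2 members higher and 1 lower in neonatal against fetal, 3 and 3 in adult against fetal, and 3 and 2 in adult against neonatal. Of all 11337 tested genes, 1272, 3675 and 2838 were called at that limit, in the same order. With library size alone, Slc25a4 stood at 681.1 CPM per kb in fetal and 524.9 in neonatal libraries, and Slc25a3 at 464.5 and 413.4. From raw counts in place of counts per kb, the share of Slc25a4 in its pair was 91.2%, 91.6% and 88.0% in fetal, neonatal and adult libraries, that of Slc25a16 beside Slc25a42 was 78.4% in neonatal and 67.2% in adult libraries, and that of Slc25a24 beside Slc25a25 was 62.0% in neonatal ones. Depth limits the 7 untested members and, among tested ones, the rarest.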
